A study of Mus musculus with 21 samples.

Results

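B16-F10 mouse melanoma cells kept for 24 h with 200 µM cobalt chloride (CoCl2) were set directly against the same cells kept for 24 h with 100 µM. The comparison used 4 of the series' 21 arrays, 2 at each dose, taken by the dose in their titles, and no untreated array entered the difference. Both doses belonged to experiment 3, which also held 2 control arrays at 21% oxygen. The other 15 arrays were hypoxia sets at 1% oxygen and their controls. All 21 arrays carried RNA of 1 cell line, B16-F10, a melanoma line of C57BL/6J mice, so the 2 doses share line, experiment and duration and differ, per the labels, in the dose alone. Both arrays of a dose are labelled as biological replicates. Separate cultures are not stated, and p-values therefore rest on array-to-array spread that may be technical. The melanocyte markers Pmel (9.10 to 10.34) and Sox10 (7.97 to 8.69) were above the array medians of 5.44 to 5.53 on all 4 CoCl2 arrays. Not every melanocyte marker was: Gpr143 read 6.06 and 6.16 at 100 µM but 4.98 and 4.85 at 200 µM. Tyr lay below the medians on some arrays of both doses.

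Cobalt ions take the place of iron in the prolyl hydroxylases that mark HIF-1α for destruction, so cobalt switches on part of the hypoxia programme while oxygen is still present. Cobalt is also toxic to proteins and membranes, and misfolded protein in the cytosol releases the heat shock factor, which drives chaperone genes. In pigment cells the factor MITF, with SOX10 and PAX3, keeps up the enzymes that make melanin in melanosomes.

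Values are log2 signals of probe sets, so a difference of 1 is a doubling. A probe set was called at an adjusted p under 0.05 in a limma fit to all 21 arrays, and "rose" and "fell" are used below of such calls. Of 10833 probe sets with 1 gene name, 1557 were called (14.4%), 740 higher (6.83%) and 817 lower (7.54%) at 200 µM. With 1 probe set per gene, 603 of 8251 genes rose (7.31%) and 693 fell (8.4%). The fit takes its error from all 9 groups, and the CoCl2 pairs vary more than the others: the SD of the difference between 2 arrays of a group was 0.40 at 100 µM and 0.33 at 200 µM, against group medians of 0.13 to 0.23 elsewhere. When the error came from the 4 CoCl2 arrays alone, 69 probe sets were called (0.637%), 28 higher and 41 lower, all of them among the 1557. Leaving out 200 µM array 2 gave 682 calls and leaving out 100 µM array 2 gave 2364, and with the Actb signal described next as a covariate there were 137. For 3912 probe sets (36.1%) the 2 arrays of one dose both lay beyond the 2 of the other. Were the 4 arrays exchangeable, a share of 0.333 would be expected to do so.

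The 200 µM arrays were not alike in the controls that follow the copying of RNA from its 3′ end. Actb gave a 3′ minus 5′ signal of 2.36 and 2.16 at 100 µM and of 1.47 and 0.50 at 200 µM, the last on array 2. Gapdh gave 1.44 and 2.18 at 100 µM against 0.45 and 0.12 at 200 µM. The transferrin receptor (2.18 and 2.41 against 2.14 and 1.96) and pyruvate carboxylase (1.12 and 1.21 against 0.60 and 0.62) were also lower at the higher dose without overlap. So were the 5 poly-A transcripts, bacterial RNAs that carry no B16-F10 sequence: their difference ran from -0.83 for lys to -1.34 for phe. The hybridisation controls, which are labelled before they reach the array, differed by -0.07 to 0.12. The gap was smaller at 200 µM in all 9 transcripts that pass through cDNA synthesis, with an exact permutation p of 0.333 for each, two-sided, the smallest that 2 against 2 arrays allow. On the arrays outside the CoCl2 experiment, the gap ran from 0.15 to 0.50 for Actb and from 0.07 to 0.52 for Gapdh. Array 2 at 200 µM lay at the top of the Actb range and within the Gapdh range, but below that of thr (0.64 against 0.76). The other 200 µM array was above the Actb range and within the Gapdh range. It was also above the ranges of dap (4.05 against 3.65), lys (0.26 against 0.14) and trp (0.63 against 0.35). Both 100 µM arrays were above both the Actb and the Gapdh range. So were the untreated arrays of the CoCl2 experiment (Actb 1.41 and 1.62, Gapdh 2.21 and 0.92). Of the 740 higher calls, 618 (83.5%) had their highest value on 200 µM array 2, and of the 817 lower calls, 540 (66.1%) had their lowest there.

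**Figure D1:**
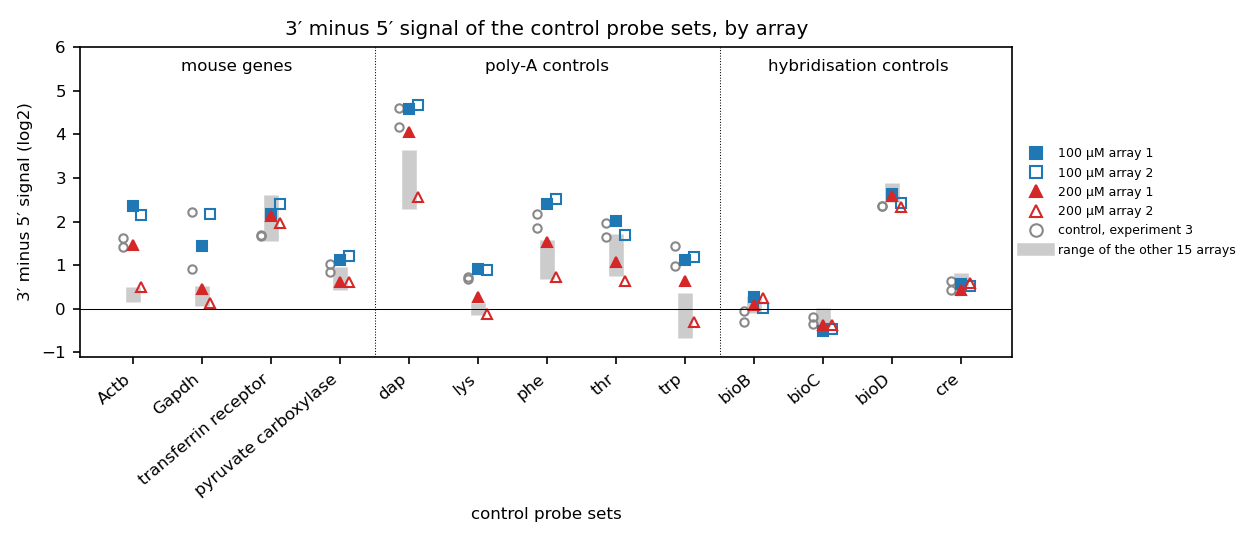
3′ minus 5′ signal (log2) of 13 control transcripts on each of the 2 arrays at 100 µM (squares), 200 µM (triangles) and control (circles) of experiment 3, with the range of the other 15 arrays in grey. Mouse genes and poly-A transcripts sit lower at 200 µM, lowest on array 2 for Actb (0.50) and Gapdh (0.12), while hybridisation controls lie close together. For Actb and Gapdh both 100 µM arrays lie above the grey range.

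Heat shock genes, mainly chaperones of the cytosol, made up the clearest rise. Of 22 measured heat shock genes, 12 rose and 0 fell by limma (13 and 0 at an unadjusted p under 0.05). The rises were 54.5% of the list, against 7.31% of all genes. The median difference was 0.54 against -0.02 over all genes. Hspa1b, the stress-inducible HSP70, read 5.30 and 6.20 at 100 µM and 8.85 and 8.86 at 200 µM. Both 200 µM arrays were thus far above both 100 µM arrays, and the controls, at 5.28 and 5.22, lay with the lower dose. The rise of 3.11 ± 0.24 (SE), or 8.62-fold (adjusted p = 5.66e-08), was the highest of all probe sets, and it held with the 4 arrays alone (adjusted p = 0.001). Its near-identical neighbour Hspa1a differed by 0.12 on its own probe set, without a call, and which of the copies each set reads is uncertain.

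The promoter of Hspa1b is shown because heat shock factor reads paired GAA units, which stand in capitals where GAANNTTC occurs on either strand. The window is the 250 bases before the RefSeq start, on the minus strand at chr17:34959239-34959488 (GRCm38.p6).

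Hspa1b: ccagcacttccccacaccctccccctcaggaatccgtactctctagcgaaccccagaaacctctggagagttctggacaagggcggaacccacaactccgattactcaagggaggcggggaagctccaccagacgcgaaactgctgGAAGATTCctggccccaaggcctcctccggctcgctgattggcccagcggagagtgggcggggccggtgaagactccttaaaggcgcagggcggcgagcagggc

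The match covers bases -104 to -97 before the start. The same letters, a motif chosen after the values were seen, occur in 6.69% of 32851 promoters of this length. Over the measured genes they occur in 6.3%, in 5.39% of those that rose and in 4.36% of those that fell. The longer heat shock motif of 3 units occurs in 0.456% of the measured genes, in 0.798% (4 genes) of those that rose and in 0.175% (1 gene) of those that fell.

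Hsph1, an HSP110 that recharges HSP70, read 7.24 and 7.60 at 100 µM and 9.62 and 9.11 at 200 µM. The controls, at 8.68 and 8.41, lay between the doses, and the rise between the doses was 1.94 ± 0.17 (adjusted p = 3.79e-07). Its distance from the controls was not tested here. Stip1, which hands clients from HSP70 to HSP90, had the same order: 5.59 and 5.79, then 7.03 and 7.58, with controls at 6.35 and 6.46. Cryab, a small chaperone of aggregating proteins, read 6.86 and 7.06 at 100 µM and 8.55 and 8.15 at 200 µM, a rise of 1.39 ± 0.14. A further Cryab probe set differed by 0.05. Hspa8, the constitutive HSC70, went from 9.05 and 9.07 to 10.56 and 10.01, a rise of 1.22 ± 0.17. In Hsph1, Cryab and Hspa8 array 1 and not array 2 was the higher 200 µM array.

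These 5 genes were called with the 4 CoCl2 arrays alone as well. Bag3, Dnajb1, St13, Hspa4, the mitochondrial Hspe1, Hspb8 and Hsp90aa1 rose by 0.54 to 1.2 with all 21 arrays and were not called with 4 (adjusted p = 0.101 to 0.402). Among the members without a call were the heat-inducible collagen chaperone Serpinh1, the mitochondrial Hspd1 and Hspa9, and the immunophilin Fkbp4. Without 200 µM array 2, 11 of the 22 were still called higher, and with the Actb 3′ minus 5′ signal as a covariate 5 were: Hspa1b, Hsph1, Cryab, Hspa8 and St13.

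**Figure D2:**
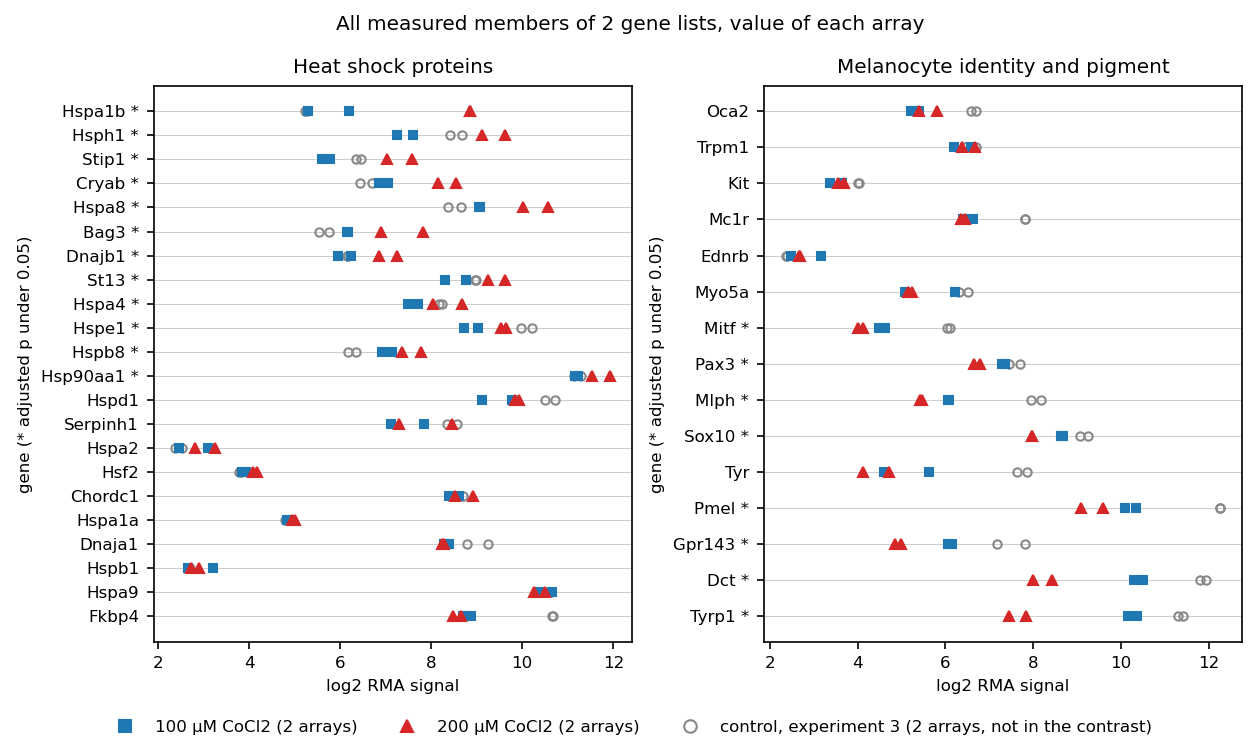
Log2 RMA signal of every measured heat shock gene (left) and melanocyte gene (right) on the 2 arrays at 100 µM (squares) and 200 µM (triangles), with the 2 controls of experiment 3 as circles; an asterisk marks a call over 21 arrays. Hspa1b stands near 8.9 on both 200 µM arrays, and Tyrp1 and Dct fall below both 100 µM arrays.

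Pigment genes went the other way. Of 15 measured genes of melanocyte identity and pigment, 8 fell and 0 rose by limma (9 and 1 at an unadjusted p under 0.05). The falls were 53.3% of the list, against 8.4% of all genes, and the median was -0.60. The melanosome enzyme Tyrp1 read 10.16 and 10.38 at 100 µM and 7.85 and 7.44 at 200 µM. Neither 200 µM array came near the 100 µM arrays, and the controls were higher still, at 11.42 and 11.31. The fall of 2.63 on the log2 scale (SE 0.15, adjusted p = 9.3e-10) was the lowest difference of all probe sets. Of the other 3 Tyrp1 probe sets, 1 was called at -0.92, and those at -0.57 and 0.04 were not. Dct, dopachrome tautomerase of the same enzyme family, read 10.30 and 10.51 against 8.43 and 8.00, with controls at 11.94 and 11.81. Its difference was -2.19 ± 0.13 (adjusted p = 9.3e-10, and 0.00242 with 4 arrays).

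The promoters of both are shown because MITF binds the M-box of pigment genes. TCATGTG or its reverse complement is in capitals, in the 250 bases before the start of Tyrp1 (plus strand, chr4:80833963-80834212) and Dct (minus strand, chr14:118052247-118052496), RefSeq on GRCm38.p6.

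Tyrp1: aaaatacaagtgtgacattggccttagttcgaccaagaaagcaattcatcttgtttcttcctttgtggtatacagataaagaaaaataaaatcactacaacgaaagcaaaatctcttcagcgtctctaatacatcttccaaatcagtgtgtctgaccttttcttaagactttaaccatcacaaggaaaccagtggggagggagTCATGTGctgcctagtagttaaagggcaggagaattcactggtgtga
Dct: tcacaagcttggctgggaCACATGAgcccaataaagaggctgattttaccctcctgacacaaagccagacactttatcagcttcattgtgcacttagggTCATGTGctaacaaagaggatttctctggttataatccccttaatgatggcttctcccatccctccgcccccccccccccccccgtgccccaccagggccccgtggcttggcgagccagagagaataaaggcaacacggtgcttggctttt

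Tyrp1 holds the letters at -47 to -41, and Dct at -232 to -226 and -151 to -145. They occur in 3.25% of promoters of this length, in 2.63% of those of measured genes, in 2.59% of those of genes that rose and in 3.66% of those of genes that fell.

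Gpr143, a receptor of the melanosome membrane, read 6.06 and 6.16 against 4.98 and 4.85, and was called in both fits. Pmel, the fibril protein of the melanosome, went from 10.10 and 10.34 to 9.10 and 9.60, a fall of 0.87 (SE 0.13). The lineage factors fell less: Sox10 by 0.69 (8.63 and 8.69 against 7.98 and 7.97), Pax3 by 0.60 and Mitf by 0.49. Mlph, which links melanosomes to the motor, fell by 0.64. For Pmel and these 4 the 4-array fit gave no call (adjusted p = 0.15 to 0.415). Tyr, the first enzyme of melanin synthesis, read 4.60 and 5.63 against 4.70 and 4.13, so its arrays overlapped and it was not called. Without 200 µM array 2, 6 members fell and Oca2, a melanosome transporter, was called higher at 0.50. The falls of Tyrp1, Dct, Gpr143 and Pmel were also called with either 3′ minus 5′ covariate.

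Genes of lipid synthesis fell as well. Of 24 measured cholesterol and fatty acid genes, 10 fell and 0 rose by limma (13 and 0 at an unadjusted p under 0.05). The falls were 41.7% of the list, against 8.4% of all genes, and the median was -0.36. Scd1, which puts the double bond into stearic acid, read 9.31 and 9.63 at 100 µM and 7.76 and 7.48 at 200 µM. The controls, at 8.72 and 8.66, lay between, and the difference was -1.85 ± 0.13 (adjusted p = 1.8e-08, and 0.0058 with 4 arrays). A further Scd1 probe set was called at -1.72, and the third, at 0.59, was not. Msmo1, Fdft1, Cyp51, Sc5d, Idi1 and Nsdhl, enzymes on the path from isoprenoids to cholesterol, fell by 0.65 to 0.84. The desaturases Fads1 (-0.62) and Scd2 (-0.57) and the lipogenic regulator Srebf1 (-0.41) completed the calls. Scd1 alone was called with 4 arrays. Leaving out single CoCl2 arrays gave 6 to 13 falls, the 6 without 100 µM array 2, when Msmo1 was at -0.50 without a call.

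**Figure D3:**
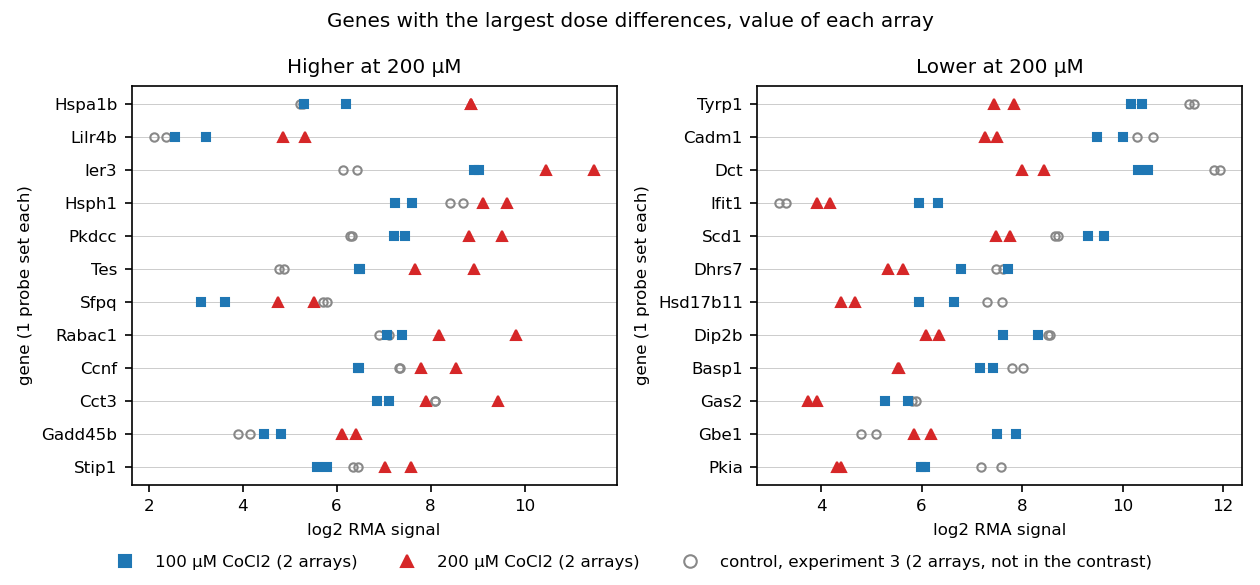
Log2 RMA signal of the 12 genes with the highest (left) and the 12 with the lowest (right) dose difference, on the 2 arrays at 100 µM (squares) and 200 µM (triangles), with the 2 controls of experiment 3 as circles. No pair overlaps, as the choice requires; the controls lie on the far side of the 100 µM arrays for Tyrp1 and Dct and near the 200 µM arrays for Ifit1.

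Interferon-induced genes were called lower more often than higher. Of 28 measured, 8 fell (28.6%, against 8.4% of all genes) and 1 rose, with a median of -0.18 and a lower sign in 23. Ifit1, which holds back foreign RNA from translation, read 5.95 and 6.32 at 100 µM against 4.18 and 3.91 at 200 µM, with controls at 3.31 and 3.17. So the lower dose stood above both the controls and the higher dose, and the dose difference was -2.09 ± 0.15 (adjusted p = 1.8e-08, and 0.00291 with 4 arrays). The antiviral Rsad2 (8.54 and 9.25 against 8.15 and 7.41), the RNA sensor Ifih1 (6.73 and 7.07 against 6.00 and 5.99) and the exonuclease Isg20 (7.72 and 7.96 against 6.86 and 7.23) fell by 0.80 to 1.11. Isg15, a ubiquitin-like modifier, rose: 8.22 and 8.87 at 100 µM, 9.61 and 9.77 at 200 µM, a difference of 1.15 ± 0.17. The chemokine Ccl5 rose by 0.65 ± 0.15, from 10.69 and 11.03 to 11.51 on both arrays, and was not called without 100 µM array 1 (0.47). Without 200 µM array 2, 5 of the list fell and Isg15 alone rose, and without 200 µM array 1, 8 fell and 3 rose. H2-D1, a gene of class I antigen presentation, had a further probe set called at 0.99 and another at -0.03 without a call. On the set that represents each gene, 0 of the 12 class I genes, which interferon also induces, were called by limma. On these sets 3 had an unadjusted p under 0.05. H2-D1 (0.41) and Tap2 (-0.35) marked the ends of their range, and leaving out 1 array gave up to 3 rises (without 200 µM array 1) or 4 falls (without 100 µM array 2).

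The promoter of Ifit1 is shown because interferon factors read a pair of GAAA units with 2 free bases between them (searched on both strands). The matches are in capitals, on the reverse strand, in the 250 bases before its start on the plus strand at chr19:34640639-34640888 (RefSeq, GRCm38.p6).

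Ifit1: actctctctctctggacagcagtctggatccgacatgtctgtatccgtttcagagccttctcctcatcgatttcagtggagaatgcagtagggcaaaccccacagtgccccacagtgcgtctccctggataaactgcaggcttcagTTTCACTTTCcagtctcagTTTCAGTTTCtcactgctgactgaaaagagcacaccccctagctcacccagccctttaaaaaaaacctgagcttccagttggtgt

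The matches lie at -104 to -95 and -85 to -76. These letters occur in 2.98% of promoters of this length, in 3.39% of those of measured genes, in 2.4% of those of genes that rose and in 4.01% of those of genes that fell.

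The genes that HIF drives did not move as a block from 100 to 200 µM. Of 23 HIF targets outside glycolysis, 4 rose (17.4%) and 7 fell (30.4%), against 7.31% and 8.4% of all genes. The median was -0.12. The rises were those of the collagen hydroxylases P4ha2 (1.01 ± 0.16, from 8.22 and 8.33 to 8.88 and 9.68) and P4ha1 (0.50), the angiogenic factor Vegfa (0.77 ± 0.18, from 6.65 and 6.89 to 7.26 and 7.82) and its relative Pgf (0.74). With the Actb covariate Vegfa turned to -0.070 and P4ha2 was at 0.086, neither called. Another P4ha2 probe set was at 0.26 without a call in the main fit. Gbe1, the glycogen branching enzyme, fell most: 7.49 and 7.87 against 5.84 and 6.19, with controls at 5.10 and 4.79, a difference of -1.67 ± 0.18 (adjusted p = 4.15e-06, and 0.0114 with 4 arrays). Egln1, the prolyl hydroxylase that marks HIF itself, fell by 0.88, the MYC antagonist Mxi1 by 0.76 and the cyclin Ccng2 by 0.67. Selenbp1, Ddit4 and Ero1a fell by 0.47 to 0.60, and the arrays of Selenbp1 overlapped. Gbe1 alone of the 11 was called with 4 arrays. Vegfa was not called without 200 µM array 2 (0.49), and the list then gave 2 rises and 3 falls. Without 100 µM array 2 it gave 6 rises.

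Glycolysis had calls both ways, with 3 rises (16.7%) and 2 falls (11.1%) among 18 genes, against 7.31% and 8.4% of all genes. Pdk1, the kinase that keeps pyruvate out of mitochondria, read 9.01 and 9.19 at 100 µM and 8.05 and 7.73 at 200 µM, and was called in both fits at -1.21 ± 0.14. The neuronal enolase Eno2 fell by 0.63. Pfkl (0.81), Hk1 (0.61) and Pkm (0.44) rose with all 21 arrays, none with 4, and Pfkl turned to -0.45 with the Actb covariate. Leaving out 1 array gave 0 to 5 rises, the lowest without 200 µM array 2 (2 at an unadjusted p under 0.05), and 1 to 2 falls. The glucose transporter Slc2a1 (0.21 ± 0.14), the mitophagy gene Bnip3 (-0.16 ± 0.18) and Hif1a (-0.16 ± 0.16) were not called, and each pair of doses overlapped. Slc2a1 read 8.99 and 9.34 at 100 µM and 9.32 and 9.42 at 200 µM, with controls at 6.57 and 6.36. Bnip3 read 8.75 and 9.32 against 8.91 and 8.84, with controls at 5.65 and 5.33, so both stood above the controls at either dose.

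Immediate early and stress genes rose in part. Ier3, a survival gene that NF-kB induces, read 9.02 and 8.93 against 10.45 and 11.49, with controls at 6.14 and 6.43, a rise of 1.99 ± 0.22. Gadd45b, a stress sensor upstream of p38 and JNK, rose by 1.63 ± 0.14 on one probe set and by 0.46 on another. Ccn1, a matrix signal, rose by 1.5, and Atf3 by 0.91 on the probe set that represents it and by 1.28 on a second. A further Atf3 set was at 0.04 without a call. Of 29 AP-1 and immediate early genes 5 rose (17.2%) and 3 fell (10.3%), against 7.31% and 8.4% of all genes. The falls were those of Fos (-1.16), Egr1 (-0.89) and Klf10 (-0.61). Fos read 6.12 and 7.59 at 100 µM, so its 2 arrays differed by more than the group means did, and a second Fos set was at 0.19. Without 200 µM array 2, 4 rose and 0 fell by limma (5 and 3 at an unadjusted p under 0.05), and without 100 µM array 2, 7 rose and 0 fell (10 and 3).

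The integrated stress response, in which ATF4 restores amino acid supply, had calls both ways: 4 of 30 genes rose and 7 fell, and leaving out 1 array gave 2 to 6 rises and 5 to 9 falls, the fewest rises without 200 µM array 2. With all 21 arrays, the shares that rose and fell were both above the 7.31% and 8.4% of all genes, the falls by more. Atf4 (0.88), Ppp1r15a (0.83), which lifts the block on translation, Aars (0.73) and Atf3 rose. The transporters Slc1a4 (-1.13 ± 0.12, also called with 4 arrays) and Slc7a5 (-0.63), the factor Atf5 (-0.92), Nupr1 (-0.89), the serine enzyme Psph, Mthfd2 and Trib3 (-0.46) fell. Ddit3, the death-linked partner of ATF4, read 9.32 and 9.11 against 9.19 and 10.20 and was not called. In the endoplasmic reticulum Atf6, a sensor of misfolded protein, fell from 5.58 and 5.90 to 4.18 and 4.10, by 1.60 (adjusted p = 4.4e-07, and 0.0114 with 4 arrays), and its partner factor Xbp1 fell by 0.76. The rises of Pdia6 (1.01) and Sec61b (0.90) rested on 200 µM array 2, at 7.75 and 7.97 against 6.10 and 6.44 on array 1, and were 0.18 and 0.14 without it. With the Actb covariate they turned to -0.91 and -0.61. In the main fit a further Pdia6 set was called at 1.16, and another, at -0.29, was not.

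Of 38 mitosis genes 7 fell (18.4%) and 3 rose (7.89%), and of 48 replication genes 6 fell (12.5%) and 2 rose (4.17%), against 8.4% and 7.31% of all genes. The medians were -0.02 and -0.17, against -0.02 over all genes. For 36 of the mitosis and 44 of the replication genes both 100 µM arrays already lay below both controls. The share of all genes that did so was not counted, and the distance was not tested here. Ccnb2, a cyclin of mitotic entry, read 7.88 and 8.29 against 7.0 and 6.46, with controls at 10.38 and 10.36, and fell by 1.36 (adjusted p = 7.54e-06, and 0.0397 with 4 arrays). Mki67, the proliferation antigen, read 4.34 and 4.94 against 3.78 and 3.40, with controls at 8.55 and 8.29, and a second probe set was at 0.33 without a call. Top2a fell by 0.90. Cdk4, the kinase of G1, fell by 0.92 ± 0.11 (9.64 and 9.57 against 8.56 and 8.80), with a second set at -0.21. Cdkn1a, the inhibitor of these kinases that p53 induces, read 7.70 and 7.49 against 8.24 and 9.89, a rise of 1.47 ± 0.30 that was 0.65 without 200 µM array 2 and turned to -0.29 with the Actb covariate. Ccnf, a cyclin that marks proteins for destruction, was among the 12 highest at 1.70 ± 0.16. Without 200 µM array 2, 1 mitosis gene rose and 3 fell, and 0 replication genes were called by limma (3 higher and 10 lower at an unadjusted p under 0.05). Leaving out 100 µM array 1 left 1 mitosis rise, without 100 µM array 2 8 mitosis and 5 replication genes rose, and without 200 µM array 1 4 replication genes rose and 3 fell.

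In 4 large groups of housekeeping genes the calls were nearly all rises, and their number changed with the arrays in the fit. Of 62 respiratory chain and ATP synthase genes 21 rose, of 45 ribosome biogenesis genes 20 rose and 1, Ubtf, fell, of 33 proteasome subunits 14 rose, and of 32 cytosolic ribosomal proteins 10 rose. These rises were 33.9%, 44.4%, 42.4% and 31.2% of the groups, against 7.31% of all genes. The medians of the groups were 0.20, 0.34, 0.34 and 0.28. Atp5e, a small subunit of ATP synthase, read 6.61 and 6.30 at 100 µM against 7.28 and 8.65 at 200 µM. The proteasome lid subunit Psmd13 read 6.73 and 7.0 against 7.80 and 8.91. In both, array 2 at 200 µM stood over 1 log2 unit above array 1. Without that array the rises numbered 5, 8, 6 and 7, and without 100 µM array 1 they numbered 10, 13, 9 and 6. With the Actb covariate they were 0 in each group by limma (3, 7, 1 and 3 at an unadjusted p under 0.05). The covariate is fitted on differences within groups, and the Actb gap differed most within the 200 µM pair.

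Single members were called with either error. Ftsj3, a methyltransferase of the nucleolus (3.01 and 3.64 against 4.62 and 5.08), Nop10, of the pseudouridine-forming particles (7.81 and 7.55 against 8.78 and 9.19), and Gnl3, or nucleostemin (5.95 and 6.22 against 7.10 and 7.30), were called with 4 arrays too. Rps7 was the only ribosomal protein so called, at 1.35 ± 0.19 (10.28 and 10.18 against 11.29 and 11.87). Of respiratory chain and proteasome genes 0 were called by limma on 4 arrays, where 15 and 11 rose at an unadjusted p under 0.05.

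**Figure D4:**
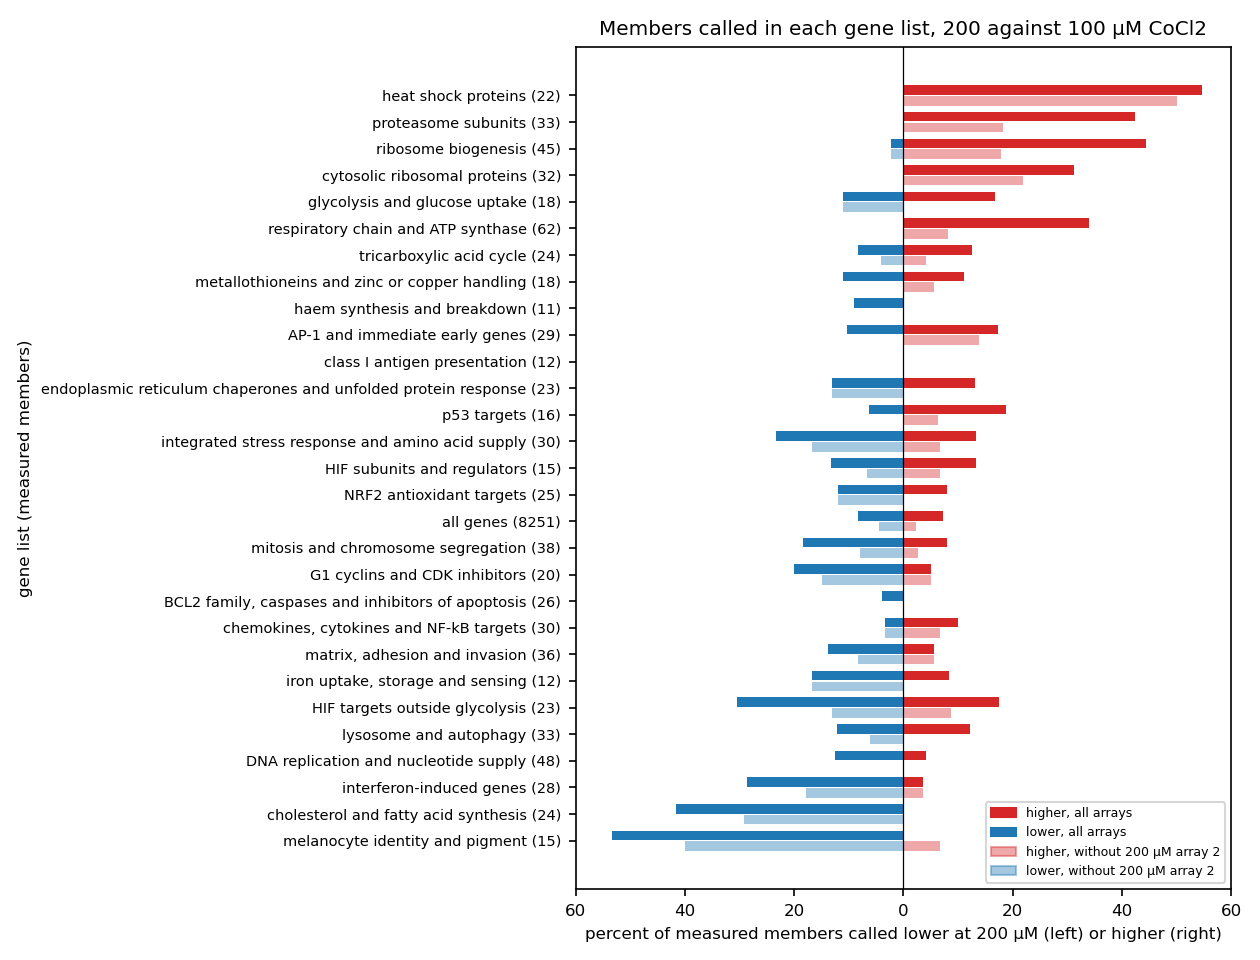
Percent of the measured members of each gene list that were called lower (left) and higher (right) at 200 µM, over all 21 arrays (full colour) and without 200 µM array 2 (pale), lists ordered by median difference. Of the 12 heat shock genes that rose, 11 were also called higher without that array, and of the 21 respiratory chain genes 5 were.

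Of 18 metallothionein, zinc and copper genes 2 rose and 2 fell, 11.1% each way, against 7.31% and 8.4% of all genes. The falls included Slc30a4 (-0.56), with another set at 0.24 without a call. Among these genes Mt1, a metallothionein that binds zinc and other metals, had the largest difference, 2.78 ± 0.56. Mt1 also had the least even pair: 7.45 and 7.90 at 100 µM, then 8.74 and 12.16 at 200 µM. The gap within the 200 µM pair exceeded the dose difference. The rise was 1.07 without array 2 and turned to -0.87 with the Actb covariate, it was not called with 4 arrays (adjusted p = 0.15), and Mt2, at 11.44 and 11.15 against 11.10 and 11.78, overlapped. Of 12 iron genes 2 fell (16.7%) and 1 rose (8.33%), against 8.4% and 7.31% of all genes. Cp, the ferroxidase ceruloplasmin, fell by 1.45 (5.94 and 6.24 against 4.46 and 4.83, called in both fits), and Hfe, a regulator of iron uptake, by 1.11. Fth1 rose by 0.49, and another Fth1 set was at -0.03 without a call. The transferrin receptor Tfrc (0.36) and the haem oxygenase Hmox1 (0.19) were not called. Hmox1 stood at 11.88 to 12.50 on all 4 arrays, against controls of 8.93 and 8.94. Of 25 NRF2 targets Sqstm1 (0.71) and Srxn1 (0.70) rose, and Gsr (-0.88), Me1 (-0.72) and Nqo1 (-0.62) fell. These were 8% and 12% of the list, close to the 7.31% and 8.4% of all genes. Leaving out 1 array gave 0 to 7 rises, the lowest without 200 µM array 2 and the highest without 200 µM array 1, and 2 to 8 falls, the highest without 100 µM array 1.

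Of 36 matrix and adhesion genes 5 fell (13.9%) and 2 rose (5.56%), against 8.4% and 7.31% of all genes. The 4-array fit called 1 of the falls and 0 of the rises. Timp3, an inhibitor of matrix proteases, read 6.50 on both 100 µM arrays and 5.28 and 5.31 at 200 µM, a fall of 1.2 called in both fits, and the membrane protease Mmp14 fell by 0.81. The urokinase receptor Plaur (0.72) and the melanoma adhesion molecule Mcam (0.59) rose. Lgals3 (0.33) was not called and its arrays overlapped. Cadm1, an adhesion molecule of the immunoglobulin family outside that list, was the second lowest of all: 9.49 and 10.00 against 7.50 and 7.27, a difference of -2.36 ± 0.15, with its other 2 sets called at -1.25 and -0.48.

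The remaining genes at the extremes stood in none of the lists. Lilr4b, an inhibitory receptor of myeloid cells, read 2.57 and 3.22 against 5.33 and 4.85, a rise of 2.19 ± 0.22 at levels below the array medians. Pkdcc (1.83), Tes (1.82) and Sfpq (1.77) were called in both fits. Tes had a second set at 0.15, and the 4 further sets of Sfpq ran from -0.27 to 0.51 without a call. Rabac1 (1.76) and Cct3 (1.69), a subunit of the TRiC chaperonin, were the 2 of the 24 that were not called with 4 arrays, and they turned to -0.11 and -0.14 with the Actb covariate. On the lower side stood the oxidoreductases Dhrs7 (-1.77) and Hsd17b11 (-1.76), Dip2b (-1.76), Basp1 (-1.75, with a second set at -0.01), Gas2 (-1.68, with a second at -0.28) and Pkia, an inhibitor of protein kinase A (-1.67, with a second called at -0.61). All of these lower ones were called in both fits. Of the 537 called genes with several probe sets, 81 had 2 or more called one way, 454 had 1, and Anp32a (0.96 and -0.57) and Dyrk1a (0.95 and -0.77) had calls in both directions.

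The other lists are read against the 7.31% of all genes that rose and the 8.4% that fell. Of 16 p53 targets Cdkn1a, Phlda3 (0.76) and Mdm2 (0.43), the ligase that degrades p53, rose (18.8% of the list) and Rrm2b fell by 0.43 (6.25%). Of 20 G1 genes Cdk4, Cdk2 (-0.68), Rbl1 (-0.58) and Ccng2 fell (20% of the list) and Cdkn1a rose (5%). Another Cdk2 set was at 0.07 without a call. Of 15 HIF subunits and regulators Elob (1.27), part of the ligase that binds HIF, and Arnt (0.63), the HIF partner, rose, and Egln1 and Siah1a (-0.51) fell, 2 of 15 each way. With the Actb covariate the difference of Elob was -0.022 and that of Arnt 0.14, neither called. Other probe sets of Elob (0.28) and Arnt (-0.04) were not called in the main fit. Of 30 chemokine, cytokine and NF-kB genes Ier3, Nfkbia (0.66), the inhibitor of NF-kB, and Ccl5 rose (10% of the list) and Tnfaip2 (-0.47) fell (3.33%). Nfkbia turned to -0.46 with the Actb covariate, and another Nfkbia set was at 0.34 without a call in the main fit. Of 24 genes of the tricarboxylic acid cycle Dlst (1.23), Sdhd (0.49) and Cs (0.38) rose, and Suclg2 (-0.64) and Idh1 (-0.53) fell, 12.5% and 8.33% of the list. Of 33 lysosome and autophagy genes 4 rose, led by Gabarapl1 (0.92), and 4 fell, led by the galactosidase Glb1 (-0.80), 12.1% of the list each way. Cpox (-0.57, with another set at -0.17 without a call) was the call among 11 haem genes and Casp4 (-0.52) that among 26 genes of apoptosis. In the 4-array fit Ier3 alone of these was called. Without 200 µM array 2, Phlda3, Mdm2, Rrm2b, Arnt, Siah1a, Nfkbia, Sdhd, Cs, Idh1, Gabarapl1, Ccng2, Cpox and Casp4 were not called.

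Few markers of other cell types were called. Of 19 leukocyte markers 1 rose, Cd68 (7.16 and 7.25 against 8.11 and 9.24), a lysosomal protein, and a second Cd68 set was at -0.09. The summed level of the list was 97.25 and 93.21 at 100 µM and 95.71 and 94.93 at 200 µM. Leaving out 100 µM array 2 gave 5 lower leukocyte calls. Of 15 fibroblast and 10 endothelial markers 0 were called by limma, with 3 and 0 at an unadjusted p under 0.05, and of 12 epithelial markers Dsp fell by 0.76, with a second set at 0.01. A further set of the endothelial Vwf was called at -0.71, and the set that represents it was at -0.24. Summed levels were 79.81 to 82.57 for fibroblast, 48.82 to 51.43 for endothelial and 51.96 to 54.90 for epithelial markers, and the doses overlapped in each. The summed melanocyte markers were 98.16 and 99.66 at 100 µM against 89.80 and 87.69 at 200 µM. In bulk RNA, fewer cells of a kind and less RNA per cell cannot be told apart.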

How the data were processed

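RNA of 21 B16-F10 samples was measured on Affymetrix U74Av2 arrays, and the 4 CoCl2 arrays were compared. The deposited values are log2 RMA signals, made by the authors with GCOS 1.2 and RMA per the submitters' processing notes. For RMA, neither a version nor a joint run of all arrays is stated there. No further scaling was applied. Of 12488 probe sets, 66 are controls, 1193 are unnamed and 396 name several genes. The 10833 with 1 gene were tested, 859 of them _f_at sets, which read a sequence family (10817 updated through Entrez identifiers, 16 with an older symbol). They cover 8251 genes, 2073 of them with several sets, and lists use the set with the highest mean over 21 arrays.

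limma 3.58.1 (R 4.3.3) fitted 1 mean per group to 21 arrays (12 residual degrees of freedom), contrast 200 minus 100 µM, two-sided, with Benjamini-Hochberg adjustment over 10833 sets and a threshold of 0.05. Errors are SE. A fit to the 4 CoCl2 arrays (2 residual degrees of freedom) is given beside it. The fits were tested on simulated data in which all groups shared the same spread for a probe set. In the real data the CoCl2 pairs vary more than the others. The simulation therefore cannot show whether the error of the 21-array fit holds for these pairs.

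Named were the 12 highest and 12 lowest called sets whose pairs lie apart by more than either gap within a pair, up to 4 members of each of 28 gene and 5 marker lists, a fixed set of genes of interest, and further called members. The members, lists and tests were chosen with earlier results of these data known. The 2-unit heat shock motif and the M-box were chosen after the values were seen. Promoters are RefSeq's, and 6576 of the 8251 genes had one, 501 of those that rose and 573 of those that fell. Array number limits the precision.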

Additional observations from a re-analysis of the deposited data

How the results depend on the processing

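Over all probe sets the dose step gave 1557 calls, 740 higher and 817 lower. With the 4 CoCl2 arrays alone there were 69 (28 higher, 41 lower), with the 6 arrays of experiment 3 115 (31 and 84), with array weights 225 (104 and 121), with the Actb 3′ minus 5′ signal as a covariate 137 (24 and 113), and with the mean of the 5 poly-A controls as a covariate, chosen after seeing the data, 124 (32 and 92). The first pair of these fits has fewer arrays; the cause of the other drops was not tested. Leaving out 1 CoCl2 array gave 682 to 2364 calls, 245 to 1156 higher and 437 to 1208 lower: 682 (245 and 437) without 200 µM array 2, 1989 (1128 and 861) without 200 µM array 1, 1595 (493 and 1102) without 100 µM array 1 and 2364 (1156 and 1208) without 100 µM array 2. Median centring gave 1532 and quantile normalisation 1733, other filters, probe set rules and moderation 1308 to 1588.

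Arrays with the same number at both doses deviated together by a correlation of 0.06, over 2 pairs. Nothing in the labels ties equal numbers to a shared culture or batch, and this value cannot settle it. With the replicate number as a block there were 1489 calls, 1464 of them among the 1557.

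Of the 24 genes at the extremes, all kept their call when any 1 CoCl2 array was left out, which their choice by pairs lying apart largely fixes. Calls also stood for 22 with 4 arrays (not Rabac1 and Cct3), 19 with the poly-A covariate (not Ier3, Tes, Sfpq, Rabac1 and Cct3) and 16 with the Actb covariate (not Ier3, Tes, Sfpq, Ccnf, Stip1, Gas2, Rabac1 and Cct3). Sign changes of called genes occurred under these covariates. With Actb the differences became -0.11 for Rabac1, -0.14 for Cct3, -0.070 for Vegfa, -0.87 for Mt1, -0.29 for Cdkn1a, 0.046 for Mcm5, -0.022 for Elob, -0.45 for Pfkl, -0.14 for Psmd3 and -0.086 for Uqcrh. With Actb and with the poly-A mean they became -0.46 and -0.074 for Nfkbia, -0.61 and -0.47 for Sec61b, -0.91 and -0.73 for Pdia6, -0.21 and -0.026 for Fth1, -0.43 and -0.16 for Ndufv3 and -0.62 and -0.15 for Rrp1. With the poly-A mean Slc30a4 became 0.0062. Both covariates are fitted on differences within groups, and the cause of these changes was not tested. After quantile normalisation the Gapdh 3′ minus 5′ difference was -1.23 in place of -1.52, and that of Actb kept its sign.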
